A study of Homo sapiens with 20 samples.

Results

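Cytosolic ribosomal protein genes were examined for N6-methyladenosine (m6A) in 2 human bladder cancer cell lines. The members were all protein-coding genes of the GENCODE annotation (hg38) named RPL or RPS with a number, together with RPLP0, RPLP1, RPLP2 and RPSA, and without the RPS6K kinases. The rule gave 86 of 20033 protein-coding genes. A gene was counted as carrying a peak when the summit of at least 1 peak lay in one of its annotated exons.

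The data were MeRIP-seq peak lists, in which fragmented RNA was pulled down with an anti-m6A antibody (IP) and compared with input RNA. T24 is a line sensitive to cisplatin and carries no engineered change, and its derivative T24R2 was made resistant by serial desensitisation with the drug. Both were collected at day 3, at confluence, and each line had 5 IP and 5 input samples, 20 in all, of which the 10 IP lists were analysed. T24R2 cells were kept in medium with cisplatin, so the resistant state and the drug in the medium cannot be told apart, and T24R2 is a single derived line. The labels do not say whether the replicates were separate cultures, so each p-value measures only the spread between these samples, which may be technical.

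The cytosolic ribosome has a small and a large subunit, each built from ribosomal RNA and one copy of most ribosomal proteins, and the P-stalk proteins bind the translation factors. Ribosomal protein mRNAs are among the most abundant mRNAs of growing cells. Most are short, have small exons and start with a terminal oligopyrimidine tract, through which their translation responds to growth signals. m6A is placed on nuclear RNA by the METTL3 and METTL14 complex, mostly at DRACH motifs, and is typically found in long internal exons and near stop codons. DRACH stands for 5 bases, which are A, G or T, then A or G, then A, then C, then A, C or T.

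The sites below are shown because they lie in the regions on which the results turn. Each is the DRACH nearest to the median summit of its region, read from hg38 on the strand of the gene, with the motif in capitals and 10 bases on either side. The first 5 belong to regions called in all 10 libraries, the next 5 to regions called in 7 or 9, and the last 2 to regions called in 4 libraries of T24R2 and none of T24.
RPS24 3′ alternative exon, chr10:78054644-78054668, plus strand: agaagtgccaGGACCgtggagcgtg
RPS29 3′ alternative exon, chr14:49577661-49577685, minus strand: acagaggtatTAACAacagggttca
RPS29 5′ alternative exon, chr14:49598427-49598451, minus strand: tggctgtattTGACTtggcaattcc
RPL31 3′ alternative exon, chr2:101018998-101019022, plus strand: tttctgtgctAAACAgtgttacagt
RPL7L1 3′UTR, chr6:42886556-42886580, plus strand: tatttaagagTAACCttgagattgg
RPL28 retained intron, chr19:55387622-55387646, plus strand: ggctctggctGGACCtggatcagat
RPL13A 3′UTR, chr19:49491874-49491898, plus strand: ggaatgtacgGGACCcaggggcagc
RPL14 3′UTR, chr3:40467336-40467360, plus strand: gggataattcAAACTgggtccagag
RPL41 3′UTR, chr12:56117596-56117620, plus strand: acaagttgtgGGACTgcatgctact
RPL37A 3′ alternative exon, chr2:216529281-216529305, plus strand: aaacccaaatGGACCaaatgcaacg
RPL24 retained first intron, chr3:101686613-101686637, minus strand: tcctcgggcaGAACTcctctctgtc
RPS24 coding exon, chr10:78037206-78037230, plus strand: gagaagaaaaAGACCtcaagaaagc

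Of the 86 ribosomal protein genes, 20 carried a peak in at least 1 of the 10 lists, a share of 23.3% (Wilson 95% interval 15.6 to 33.2). Among all protein-coding genes 10233 carried one, or 51.1%. Peaks in all 10 lists were found for 5 ribosomal protein genes, 5.81% of the family, against 5514 genes or 27.5% of all protein-coding genes. The share in at least 5 lists was 14.0% against 39.3%. The lists hold no expression values, so genes that are not transcribed in these cells count as genes without a peak on both sides. The share of such genes may differ between the family and all protein-coding genes and was not measured.

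The share depended on which annotated exons were counted. On the exons of the canonical transcript alone, the transcript GENCODE marks as representative, 12 ribosomal protein genes (14.0%) and 48.1% of all protein-coding genes carried a peak. Without the T24R2 library of replicate 5, which had the most peaks, 18 ribosomal protein genes remained, and RPL3 and RPL10 were the ones called in that library only.

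The peaks were unevenly spread over the subunits. Of the 43 large-subunit genes outside the P-stalk and the paralogs, 16 carried a peak (37.2%). Of the 31 small-subunit genes only RPS24 and RPS29 did (6.45%), and both were in all 10 lists. None of the 3 P-stalk genes RPLP0, RPLP1 and RPLP2 had one. Of the 9 paralogs, RPL7L1 and RPL3L carried a peak, and RPL10L, RPL22L1, RPL26L1, RPL39L, RPS27L, RPS4Y1 and RPS4Y2 did not. The median transcript was 970 nt long for the large-subunit genes and 732 nt for the small-subunit genes. This split was noticed in the data and was not tested.

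The 27 large-subunit genes without a peak included RPL5, RPL6, RPL7, RPL7A, RPL8, RPL9, RPL10A, RPL11, RPL12, RPL15, RPL17, RPL18, RPL19, RPL21, RPL23, RPL23A, RPL27, RPL27A, RPL29, RPL32, RPL34, RPL35, RPL35A, RPL36A, RPL38 and RPL39. Among them RPL5 and RPL11 form, with 5S rRNA, the particle that binds MDM2. The 29 small-subunit genes without a peak included RPS6, the substrate of the S6 kinases, RPS3 and RPS2 at the mRNA entry channel, RPS19, the gene most often mutated in Diamond-Blackfan anaemia, and RPSA. They also included RPS3A, RPS4X, RPS7 to RPS18 with RPS15A, RPS20, RPS21, RPS23, RPS25 to RPS28 and RPS27A.

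**Figure D1:**
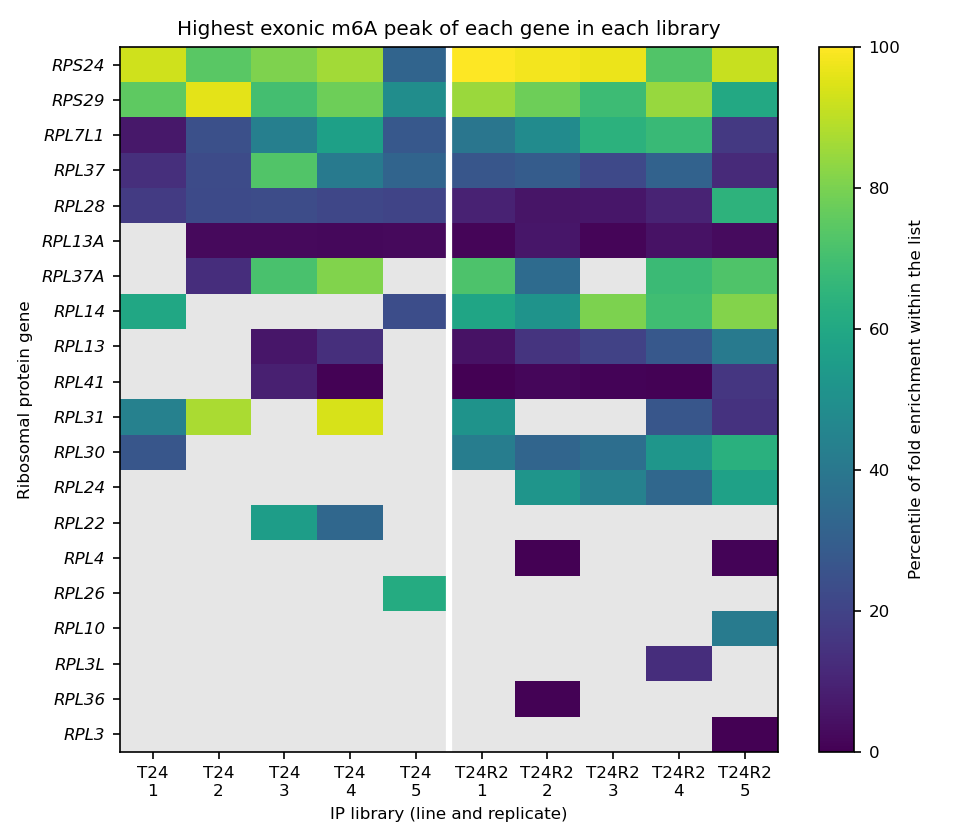
The rows are the 20 ribosomal protein genes with a peak and the columns the 10 IP libraries. Colour gives the percentile of the gene's highest fold enrichment among all peaks of that list, and grey means no exonic peak. RPS24, RPS29, RPL7L1, RPL37 and RPL28 are filled in all 10 columns. The lowest rows, of genes called in 1 or 2 lists, are mostly grey in both lines.

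Ribosomal protein transcripts were short. The median length of the canonical transcript was 858.5 nt, against 2885 nt for all protein-coding genes, and the median longest exon was 313 nt against 1465 nt. The density of DRACH motifs was similar, with a median of 17.9 per 1000 nt against 19.0. Because of their lengths, a median ribosomal protein transcript held 17 motifs, of which 3.5 lay at least 100 nt from an exon junction. The medians over all protein-coding genes were 54 motifs and 30 at that distance.

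Within the family, the genes with a peak had the longer transcripts. Their median length was 1678.5 nt and their median last exon 919 nt, against 775 nt and 232.5 nt for the 66 genes without. They held a median of 12 motifs at least 100 nt from a junction, against 3. The number of pseudogenes named after the gene was 13.5 at the median in genes with a peak and 9.5 in those without. The upper quartile and the maximum went the other way, 19.25 and 62 with a peak and 26.5 and 133 without. Pseudogenes matter here because the authors kept uniquely mapped reads, and a near-identical copy takes reads from its parent. The part of this in the share of genes with a peak was not tested.

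Side by side within classes of transcript length, the family and all protein-coding genes were closer than in the whole. Above 2500 nt, 6 of 10 ribosomal protein genes carried a peak (60.0%) against 63.5% of all 11465 genes of that length. From 1500 to 2500 nt the share was 4 of 11 (36.4%) against 43.5%, and from 1000 to 1500 nt 3 of 17 (17.6%) against 30.0%. From 750 to 1000 nt none of 11 ribosomal protein genes carried one, against 20.9%. At 500 to 750 nt the share was 17.9% against 21.8%, and at up to 500 nt 2 of 9 (22.2%) against 12.1%. In each of these 6 classes the Wilson interval of the family, which is wide at these numbers, held the share of all genes. The classes use the canonical transcript, while peaks were counted in any annotated exon. Of the family's summits 46.7% lay outside canonical exons, against 10.1% over all genes. The 2 genes with a peak at up to 500 nt, RPS29 and RPL30, had none in a canonical exon. The shares by class were not counted on canonical exons alone.

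By the longest exon, the largest class showed a gap. Of the 21 members with an exon above 1000 nt, 9 carried a peak (42.9%, interval 24.5 to 63.5), against 61.5% of all 12584 such genes, a value that the interval still held. Among the 9, RPL10, RPL22 and RPL37A had no peak in a canonical exon. The 12 long members without a peak were RPL15, RPL22L1, RPL23, RPL27A, RPL32, RPS3, RPS14, RPS15A, RPS19, RPS23, RPS27L and RPS28.

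**Figure D2:**
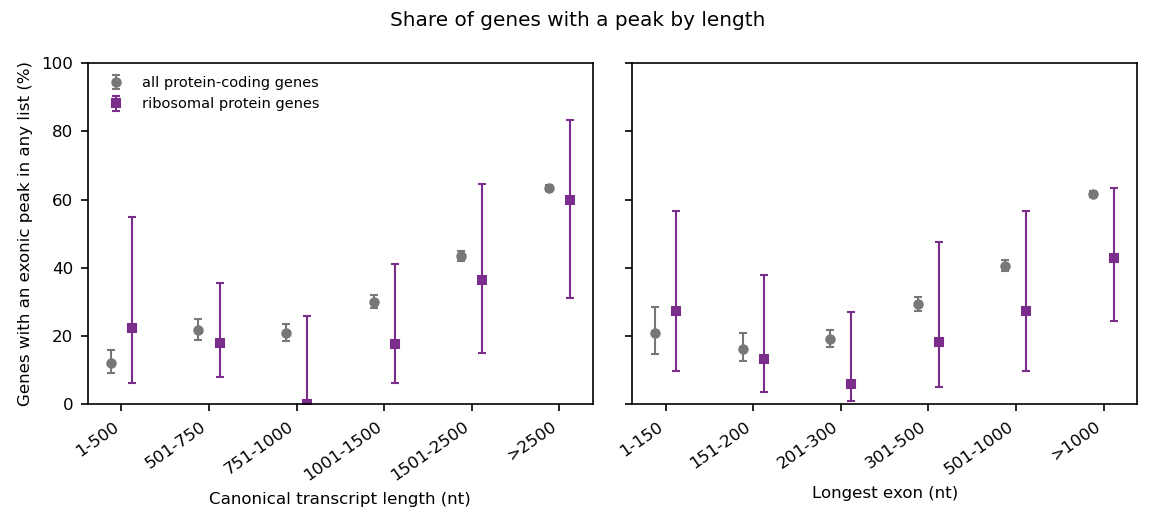
The y axis gives the percentage of genes with an exonic peak in any list, by class of canonical transcript length (left) and of longest exon (right), with Wilson 95% intervals. The family's points lie near those of all protein-coding genes at over 2500 nt (60.0% against 63.5%), with wide intervals throughout.

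Other gene lists of the translation machinery were counted in the same way. Of the 78 mitochondrial ribosomal protein genes, whose products form the separate ribosome of the mitochondrion, 47 carried a peak (60.3%) and 21 carried one in all 10 lists. Their median transcript was 1242 nt. Among transcripts of up to 1000 nt, 19 of 26 mitochondrial genes carried a peak (73.1%), against 7 of 48 cytosolic genes (14.6%). Of these 7, RPL26, RPL30, RPL36 and RPS29 had no peak in a canonical exon, and the mitochondrial genes were not counted that way. Above 1000 nt the counts were 28 of 52 (53.8%) and 13 of 38 (34.2%). The median lengths within the shorter class, 801 and 622.5 nt, were not equal, and the difference was not tested.

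Translation factors carried a peak in 21 of 43 cases (48.8%), among them EEF2 and EIF4G1 in all 10 lists, and EEF1A1, EIF4A1 and PABPC1 were without one. Ribosome assembly genes carried one in 23 of 36 cases (63.9%). Among ribosomal proteins that the naming rule leaves out, RPL36AL had a peak in all 10 lists, RACK1 in 1 and FAU in none. Of 16 urothelial and epithelial markers 8 carried a peak, with KRT7, FOXA1 and KLF5 in all 10 lists and UPK1B, UPK2 and UPK3A in none. GATA3 and ELF3 were each in all 5 T24 lists and in no T24R2 list. Peak lists show methylated transcripts and not their level, so an absent marker says nothing of expression.

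The 165 peak summits in exons of ribosomal protein genes lay mostly in 3′UTRs. By any annotated transcript, 62.4% were in a 3′UTR, 19.4% in coding sequence (CDS), 8.48% in a 5′UTR and 9.70% in exons of noncoding transcripts. Over all 161565 peaks of protein-coding genes the shares were 32.3%, 55.7%, 8.69% and 3.30%. The share in CDS averaged 18.8% ± 7.15 (SD, n = 10 libraries) for the family and 55.6% ± 0.884 for all genes, and the highest value of the family in any library, 32.0%, lay below the lowest of all genes, 54.6%.

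On the canonical transcript, only 9 of the 165 summits were in the CDS (5.45%), 47.3% were in the 3′UTR and 1 was in the 5′UTR. The other 46.7% lay outside its exons, in an intron or in exons of longer alternative transcripts. The shares over all genes were 54.1% in the CDS, 29.4% in the 3′UTR and 10.1% outside. CDS made up 37.4% of the transcript bases of the family, 24.2% of those of its genes with a peak, and 47.1% of those of all protein-coding genes.

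The 9 summits in the canonical CDS fell in 4 genes and 6 regions, and their fold enrichment was low. RPL3 had 2, RPL4 and RPL7L1 had 1 each and RPS24 had 5. The values ran from 1.54 in RPL4, whose protein lines the exit tunnel, to 3.67 in RPL7L1, and they reached at most percentile 7.43 of their list. Of the 9, 1 was in a T24 library and 8 were in T24R2 libraries, 4 of these in the library of replicate 5.

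The summits in canonical exons were in the last exon in 89.8% of cases, against 55.0% over all genes. Their exon was 3645 nt long at the median, against 1499 nt, and the nearest junction was 436 nt away, against 274 nt. In the 3′UTR, the median distance from the stop codon was 432.5 nt against 316 nt, and 43.6% lay within 400 nt of it against 56.1%. These medians weight genes by their number of peaks, and RPL37, RPL7L1, RPL13A and RPL28 supplied most of them.

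The summits merged into 30 regions in 20 genes. By their median summits, 17 regions lay in canonical exons, 11 of them in the 3′UTR and 6 in the CDS. Another 4 lay in introns of the canonical transcript, 5 downstream and 4 upstream of it. The median of the regions' median fold enrichment was 2.15 in the canonical CDS, 4.26 in the canonical 3′UTR and 6.77 outside canonical exons. A median of 33.3% of a gene's annotated coding transcripts had an exon at the summit. In 17 of the 30 regions it was under 50%, and 6 regions lay in every coding transcript, namely those of RPL3 and RPL41, the CDS region of RPL7L1 and both CDS regions of RPS24. The region with the highest median fold enrichment, the 3′ alternative exon of RPS24, was in 1 of 8 coding transcripts.

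Around the 165 summits, a DRACH was found within 50 nt on the gene's strand in 95.2% of cases and on the other strand of the same windows in 74.5%. Over all peaks of protein-coding genes the values were 89.7% and 71.9%. Of the 29 regions whose sequence was read, 24 held a DRACH within 50 nt of the median summit, and in 8 the nearest was of the GGAC form. The printed sites of the RPS24 3′ alternative exon, RPL28, RPL13A, RPL41 and RPL37A are of this form, and the 5 regions without any were those of RPL10, RPL36 and RPL3L, 1 CDS region of RPL3 and the CDS region of RPL7L1. A match is a description of the window and does not place the modified base.

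**Figure D3:**
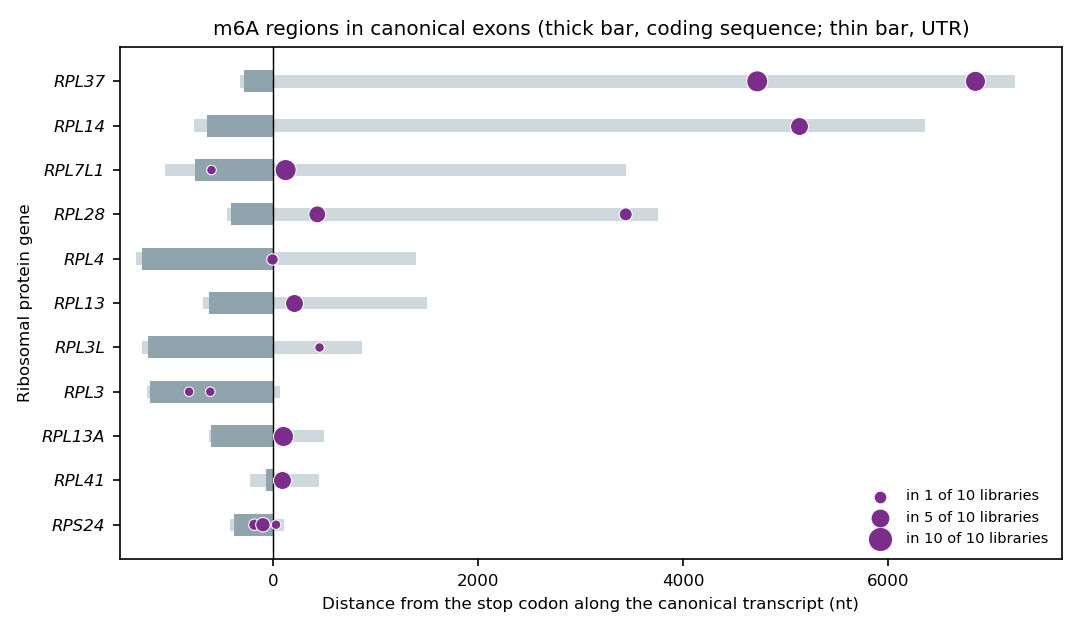
Each row is the canonical transcript of 1 of 11 genes, with the distance from the stop codon in nt on the x axis, CDS as thick and UTR as thin bars. Each point is a region at its median summit, larger when called in more libraries. The points of RPL37 lie 4724 and 6855 nt past the stop codon. Those of RPL13A, RPL41 and RPL13 and the 3′UTR point of RPL7L1 lie within 200 nt of it.

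RPS24, a small-subunit protein needed for processing of the 18S rRNA precursor, had the strongest peaks of the family. The region was chr10:78054455-78055217, in an alternative exon 13941 nt past the end of the canonical transcript that is part of 1 of 8 coding transcripts. Its fold enrichment was 16.1, 9.21, 11.5, 12.6 and 5.46 in T24 replicates 1 to 5 and 24, 22.5, 16.2, 9.67 and 14.1 in T24R2. The 2 highest values were in T24R2 and the lowest in T24, but the groups overlapped. The difference was 0.57 on the log2 scale after centring each library (SE 0.30), and it missed the threshold (limma, Benjamini-Hochberg adjusted p = 0.411). Without T24 replicate 5 it was 0.37. The gene's highest peaks stood at a median percentile of 88.8 within their lists.

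RPS29, a zinc-binding small-subunit protein, had 2 regions called in every library, and neither was in an exon of its canonical transcript of 295 nt. The region chr14:49577388-49577837 lies 5908 nt past the end of that transcript and overlaps the processed pseudogene RPL32P29 on the same strand. Its fold enrichment was 10.5, 15.7, 9.64, 9.06 and 4.29 in T24 and 7.07, 6.15, 3.29, 6.26 and 7.60 in T24R2. In T24 4 of 5 libraries exceeded every T24R2 library. The log2 difference was -0.73 (SE 0.30, limma adjusted p = 0.266).

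The other region of RPS29, chr14:49598274-49599749, lies upstream of the canonical transcript, and some of its summits also lay in exons of LRR1. Fold enrichment was 8.50, 10.1, 3.99, 10.5 and 6.55 in T24 and 11.2, 11.3, 8.11, 12.2 and 11.8 in T24R2. In T24R2 4 of 5 libraries lay above every T24 library, the reverse of the downstream region. The log2 difference was 0.43 (SE 0.28, limma adjusted p = 0.529), so neither region passed. Without T24 replicate 3, the lowest library, it was 0.17. The lists carry no strand, and reads of the overlapping genes cannot be told apart. Without summits in exons of other genes, RPS29 kept 10 of its 22 peaks.

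RPL31, a large-subunit protein at the exit of the tunnel, had a region in all 10 libraries at chr2:101018652-101019226, 11741 nt past the canonical end. The exon there belongs to 1 of 10 coding transcripts, and the region lies within the body of TBC1D8 on the opposite strand. The summit fell in the exon in 6 libraries, 3 of each line. Fold enrichment was 6.79, 11.7, 10.4, 16.2 and 4.32 in T24 and 6.75, 4.36, 6.22, 5.24 and 4.19 in T24R2. All but 1 T24 library exceeded every T24R2 library, with T24 replicate 5 among the lowest values. The log2 difference, -0.86 (SE 0.31), was the largest of the 6 regions tested and missed the threshold (limma adjusted p = 0.199).

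RPL37, another zinc-binding protein of the large subunit, carried peaks deep in a last exon of 7312 nt. One region was in all 10 libraries and lies 4724 nt past the stop codon, in 1 of 3 coding transcripts. Fold enrichment was 4.50, 4.91, 3.99, 6.19 and 2.46 in T24 and 5.04, 5.93, 4.61, 5.67 and 4.05 in T24R2. The values overlapped throughout, and the log2 difference was 0.15 (SE 0.26, limma adjusted p = 0.851). Without T24 replicate 5, the lowest library, it was -0.020. The region 6855 nt past the stop codon was called in 5 libraries of T24 and 4 of T24R2.

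RPL7L1, a paralog of RPL7 that acts in ribosome assembly, had a region in all 10 libraries, chr6:42886422-42887866, in a last exon of 3645 nt. Its median summit lay 119 nt past the stop codon, while the highest summit lay farther along the exon in 3 libraries, at positions 42886963 and 42887477 in T24 replicates 4 and 5 and 42886961 in T24R2 replicate 4. The highest fold enrichment was 3.61, 5.04, 6.98, 7.49 and 5.15 in T24 and 5.85, 7.44, 7.60, 8.96 and 4.41 in T24R2. The ranges overlapped, and the log2 difference was 0.19 (SE 0.27, limma adjusted p = 0.819). Leaving out single libraries moved it from 0.019, without T24 replicate 1, to 0.36, without T24R2 replicate 5.

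**Figure D4:**
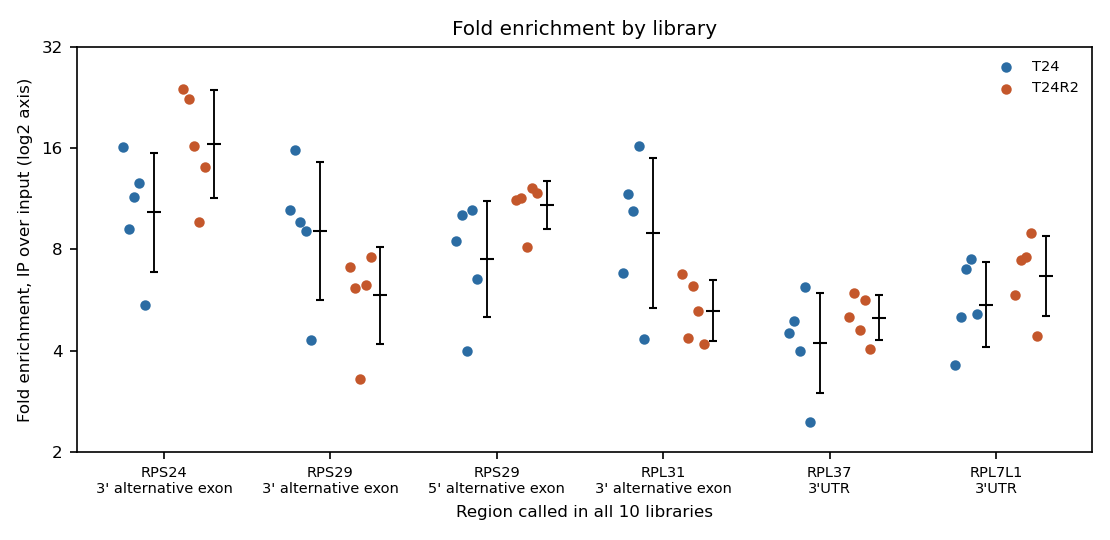
The y axis, on a log2 scale, is the authors' fold enrichment of IP over input for the 6 regions called in all 10 libraries. Points are libraries, and black bars give the geometric mean and 1 SD on the log2 scale. The 2 lines overlap in every region, with T24R2 higher in RPS24 and in the 5′ exon of RPS29 and lower in RPL31 and the 3′ exon of RPS29.

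RPL28 completed the 5 genes found in all lists, through 3 regions of which none was in every library. Its main region, chr19:55387503-55387920, is exonic only in transcripts with a retained intron and was called in 5 T24 and 4 T24R2 libraries. The highest fold enrichment over the 3 regions of the gene was 4.80, 4.88, 5.38, 4.80 and 4.67 in T24 and 3.70, 3.71, 3.35, 4.03 and 8.13 in T24R2. In T24R2, 4 of 5 libraries lay below every T24 library and replicate 5 lay above them all. The values are not from 1 region, since those of T24 replicate 1 and T24R2 replicate 5 came from a region 3440 nt past the stop codon and that of T24R2 replicate 2 from one 428 nt past it. The region 428 nt past the stop codon was called in 2 libraries of T24 and 4 of T24R2.

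Across the table, 9577 regions called in all 10 libraries were tested by limma, and 46 were higher in T24R2 (0.48%) and 30 higher in T24 (0.313%) at an adjusted p under 0.05. None of the 6 regions of ribosomal protein genes was among them, 2 had an unadjusted p under 0.05, and 1337 of all regions did. Without centring of the libraries the split was 56 higher and 17 lower, and on -log10 q in place of fold enrichment it was 88 and 182, again with none of the 6. The 6 are the regions strong enough to be called everywhere, and they say nothing of regions present in fewer libraries.

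More ribosomal protein genes carried a peak in T24R2 libraries. The number was 8, 8, 10, 11 and 8 in T24 replicates 1 to 5, a mean of 9.0 ± 1.41 (SD, n = 5), and 12, 14, 11, 14 and 16 in T24R2, a mean of 13.4 ± 1.95 (SD, n = 5). The lowest T24R2 library equalled the highest T24 library. On canonical exons the counts were 3 to 6 in T24 and 7 to 11 in T24R2, and the lines did not overlap. All protein-coding genes moved in the same direction, from 7215 ± 347 to 8135 ± 480 genes per library, also without overlap. T24R2 lists were longer, with 22671 to 33120 peaks against 17203 to 22901.

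Set against these totals, ribosomal protein genes made up 0.124% of the genes with a peak in T24 libraries and 0.164% in T24R2. Their peaks numbered 6.84 ± 0.576 per 10000 in T24 and 7.35 ± 0.496 in T24R2, ranges that overlapped. When every list was cut to its 17203 peaks of highest -log10 q, the means were 8.4 and 11 genes, and the difference of 4.4 genes became 2.6. Without T24R2 replicate 5 it was 3.75. The files hold no read counts, so the depth of the libraries is unknown and its part in these counts was not tested.

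**Figure D5:**
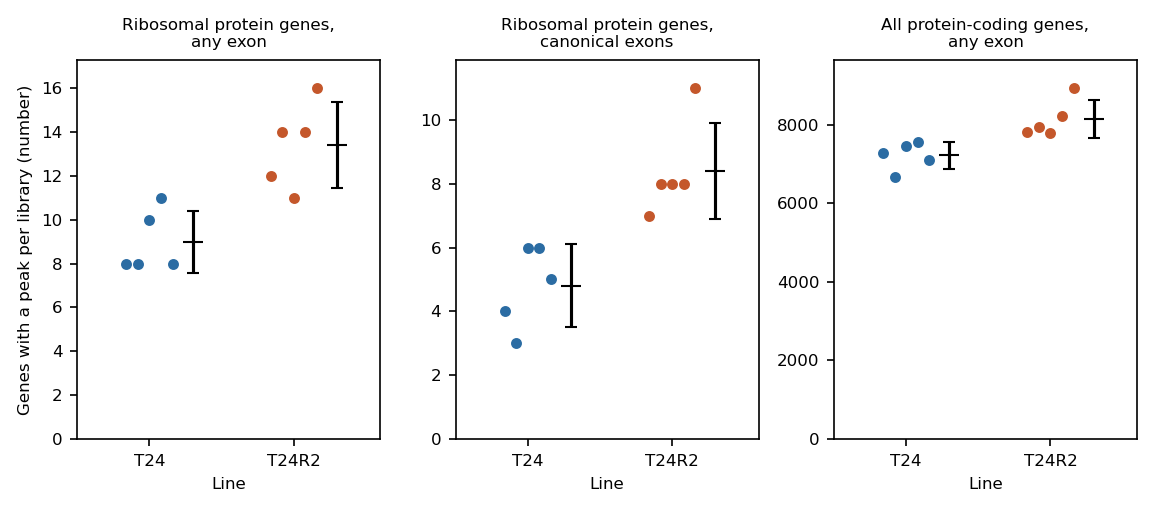
Points are libraries, and black bars give the mean and SD of 5 libraries per line. The left and middle panels count ribosomal protein genes with a peak in any exon (8 to 11 in T24, 11 to 16 in T24R2) and in canonical exons (3 to 6 and 7 to 11), and the right panel counts all protein-coding genes (6678 to 7568 and 7774 to 8931).

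Across lists, 14 ribosomal protein genes had a peak in T24 and 18 in T24R2, beside 8667 and 9620 of all protein-coding genes. At the level of the gene, RPL24 and RPL30 were called in at least 4 lists of T24R2 and at most 1 of T24, a state that 3.45% of all protein-coding genes shared. No ribosomal protein gene showed the opposite, against 1.3% of all genes. RPL24, which forms a bridge between the subunits, was called in 4 T24R2 libraries and 0 T24 libraries. Its fold enrichment was 7.85, 5.98, 5.76 and 7.33 in T24R2 replicates 2 to 5. The median summit of the region, chr3:101686550-101686731, lies in the first intron of the canonical transcript and is exonic in 2 noncoding transcripts of the gene. Of its 4 summits, 1 lay in a canonical exon.

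RPL30, a large-subunit protein that also contributes to a subunit bridge, was called in 5 T24R2 libraries and 1 T24 library. Fold enrichment was 6.08, 6.23, 5.51, 7.29 and 7.99 in T24R2 and 5.56 in T24 replicate 1. The region lies upstream of the canonical transcript, in the 5′UTR of 1 of 5 coding transcripts, and all 6 summits also lay in an exon of an unnamed long noncoding RNA gene on the other strand, so that RPL30 has no peak when summits shared with other genes are left out. A CDS region of RPS24, chr10:78037090-78037222, was called in 0 T24 and 4 T24R2 libraries. The summit fell in the exon in 3 of these, with weak peaks at a median percentile of 2.51, and in T24R2 replicate 4 it lay in the intron. Counted by summits in the exon, this region would not meet the rule of at least 4 libraries.

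Each of these 3 regions had a two-sided Fisher's exact p of 0.0476 (n = 5 against 5), and none passed after adjustment over all 43676 regions (Benjamini-Hochberg adjusted exact p = 0.517). Of the 30 exonic regions of the family, these 3 were called more often in T24R2, beside 7.11% of all regions at that unadjusted threshold, and 0 more often in T24, beside 2.09%. No exonic region of a ribosomal protein gene was called in 5 of 5 libraries of T24R2 and 0 of 5 of T24, a state of 3.02% of all regions, and none had the reverse, a state of 1.05%. Over all regions 4021 had an unadjusted exact p under 0.05 and none an adjusted one. With 5 against 5 libraries the lowest possible exact p is 0.00794, and regions at that floor had an adjusted value of 0.195. No region could therefore have passed, and the adjusted values say nothing for or against a difference between the lines. Among peaks with a -log10 q of at least 10, RPL14 was called in 0 T24 and 5 T24R2 libraries, RPL13 in 1 and 5, RPL24 in 0 and 4, and RPL31 in 4 and 0. At that threshold the family had 18 regions. Over all regions, 640 were then called in 5 T24R2 and 0 T24 libraries and 171 the reverse. The share of all regions with calls like those of RPL13, RPL24 and RPL31 was not counted there, so these have no background beside them.

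RPL14, RPL13 and RPL41 were each in 2 T24 and all 5 T24R2 lists, an unadjusted exact p of 0.167. RPL14 was strong, with fold enrichment of 8.27 and 4.86 in T24 replicates 1 and 5 and of 7.32, 7.71, 9.75, 9.19 and 10.8 in T24R2. Its region lies 5129 nt past the stop codon, as in RPL37 far along a long last exon. RPL13, with 3.55 and 4.26 in T24 and 3.20 to 5.88 in T24R2, was centred 200 nt past the stop codon. RPL41, the smallest ribosomal protein with a CDS of 75 nt, had 3.99 and 2.21 in T24 and 1.86 to 4.34 in T24R2, 85 nt past the stop codon. At a median percentile of 1.16, the peaks of RPL41 were among the weakest of their lists.

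RPL13A, known for its extraribosomal role in translational silencing after interferon, was in 9 of 10 lists with a weak peak 89 nt past its stop codon. Fold enrichment was 2.77, 2.89, 2.80 and 2.71 in T24 replicates 2 to 5 and 2.44, 3.82, 2.56, 3.39 and 3.05 in T24R2, and no T24 replicate 1 peak was called. RPL37A was in 3 T24 and 4 T24R2 lists, with a strong peak in an exon 25207 nt past the canonical end. Its values were 4.11, 9.90 and 11.2 in T24 and 8.85, 6.42, 8.96 and 9.13 in T24R2. Its neighbour in name, RPL37, differed from it in having its peaks inside the canonical last exon.

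The rest were rare. RPL22 was in 2 lists of T24, with 7.98 and 5.58, and RPL26, which binds the p53 mRNA, was in 1 list of T24 with 7.52. RPL4, with 1.54 and 2.42, was in 2 lists of T24R2. RPL3, at the peptidyl transferase centre, its muscle paralog RPL3L, RPL10, which joins the large subunit late, and RPL36 were each in 1 list of T24R2. The regions seen in 1 library only were 9 of 30 (30.0%), near the 27.9% of all regions.

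By fold enrichment, ribosomal protein peaks were below the average peak of coding genes. The median percentile of fold enrichment within a list was 28.5 ± 8.12 (SD, n = 5) for T24 and 27.5 ± 9.65 (SD, n = 5) for T24R2. That of all peaks in coding genes ran from 47.3 to 50.7 over the T24 libraries and from 47.6 to 51.2 over those of T24R2. The highest value of the family in any library, 40.9, lay under the lowest of coding genes, 47.3. By -log10 q, which also grows with the number of reads, the percentiles were 49.7 and 49.6, against 55.2 and 58.3 for coding genes. On this measure the libraries overlapped, at 35.9 to 64.0 for the family and 52.3 to 60.4 for coding genes. The family was above coding genes in T24 replicates 2 and 4 and below them in the other libraries. On canonical exons alone the percentile of fold enrichment was 10.7. By each gene's highest peak in a list, the 2 small-subunit genes RPS24 and RPS29 stood highest, with median percentiles of 88.8 and 76.6. RPL37A followed at 71.2, RPL26, which was in 1 list, at 61.7 and RPL14 at 59.7. This measure favours genes with several peaks per list. By region, the RPS24 3′ alternative exon stood at 77.6. The 2 regions of RPS29 stood at 57.8 and 58.8, under those of RPL26 and RPL14 and the main region of RPL37A.

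Introns of ribosomal protein genes held summits of 24 regions, 2 of which were also among the exonic regions. RPL10 had one in all 10 libraries with a median fold enrichment of 14.4, at chrX:154394002-154394534, above every exonic region of the family at its median. RPS4X, RPS27L, RPL22 and RPL31 also had intronic regions in all 10 libraries, with medians of 9.75, 9.17, 6.29 and 9.62. RPL27A had one in 5 T24 and 1 T24R2 libraries (two-sided Fisher's exact p = 0.0476, adjusted 0.517). A region of RPL31, chr2:101011174-101011368, was called in 0 T24 and 5 T24R2 libraries (exact p = 0.00794, adjusted 0.195). Another region of RPL31 and 2 of RPL36 were each called in 0 T24 and 4 T24R2 libraries, also at an exact p of 0.0476 (adjusted 0.517). With the RPS24 region given above, these were all of the 24 with an exact p under 0.05. Over all regions, 7.11% had such a p with T24R2 higher and 2.09% with T24 higher. They were named after their values were seen, and the difference from these shares was not tested. Ribosomal protein introns host many small nucleolar RNAs, but none of the intronic summits lay in an annotated one. The genomic strand of these peaks is not recorded, and their overlap with genes other than small nucleolar RNAs is not given. The intronic regions therefore cannot be credited to ribosomal protein transcripts.

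Pseudogenes named after ribosomal protein genes were searched as well. Of 1605, 66 had a summit in an annotated exon (4.11%), 12 of them in all 10 lists, and 78 of the 86 members had at least 1 named pseudogene. Of the 66, 32 lay in the body of a coding gene and 16 shared the summit with a coding exon. The pseudogenes had 30 parents, of which 24 had no exonic peak of their own. The number per library was 26 to 31 in T24 and 34 to 45 in T24R2, beside 17203 to 22901 and 22671 to 33120 peaks in the lists. Whether their peaks come from pseudogene transcripts, from host genes or from reads of the parent placed there cannot be told from the lists.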

How the data were processed

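Peaks were used as the authors made them. Per the study's methods and the submitters' processing notes, reads were aligned to hg38 with STAR 2.7.0, uniquely mapped reads without duplicates were kept with SAMtools 1.10, and MACS2 (version 3.0.0a6 in the notes) called peaks of IP over input for each library without pooling. The fold enrichment deposited by the authors is a ratio, the IP pileup at the summit over the local input. The authors also deposited a −log10 q-value, a −log10 p-value and a score derived from q, of which only the first was used further. The lists were checked to merge (bedtools 2.31.1) to the 43676 deposited regions, and no row was shared between lists. No peak lay past a chromosome end of the reference.

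Summits were assigned to exons of GENCODE 44. Length, exon and motif values are those of the canonical transcript. A region counted as called in a library if any peak of the list fell in it. Fisher's exact test (two-sided) compared 5 with 5 libraries for presence, with Benjamini-Hochberg adjustment over the whole table. Fold enrichment was compared with limma 3.58.1 (R 4.3.3) on log2 values, using the highest peak of a region, centred on each library's median, over the regions called in all 10 libraries. The code of both was run on simulated data with planted differences. For Fisher's test the planted regions had the lowest possible p by design, so that run says nothing of its power. Other steps used Python 3.11.15, pandas 2.3.3, scipy 1.17.1 and pysam 0.24.0. Without read counts in the lists, no count test was run and no interval that needs depth is given. Intervals of shares are Wilson 95% intervals and cover the number of genes only.

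The members and gene lists were chosen with earlier results of these data known. Named were all members with a peak in all 10 lists, members or regions in at least 4 of 5 lists of one line and at most 1 of 5 of the other, every other member with a peak, members without one in groups, and the other lists by counts. Introns and pseudogenes were named after their values were seen. A few genes without a peak, and the site of 1 region, are not reported here.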

Additional observations from a re-analysis of the deposited data

Results flagged for a closer look

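In 27 groups of 5 values, the highest or lowest value was compared with the others by Dixon's ratio (critical value 0.71), which chance exceeds in about 1 of 20 groups. In 4 of them a library stood apart. The T24R2 library of replicate 5 held 25 peaks in ribosomal protein genes, where the next held 18 (ratio 0.778). The same library held 11 ribosomal protein genes with a peak in canonical exons, where the next held 8 (ratio 0.75), and it also had the longest list. In that library the highest fold enrichment of RPL28 was 8.13, against 4.03 in the next (ratio 0.858), and the 8.13 came from another region of the gene. In T24, replicate 3 had the highest fold enrichment of RPL28, 5.38 against 4.88 (ratio 0.711).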

How the results depend on the processing

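The share of ribosomal protein genes with a peak, 23.3%, was 15.1% with a -log10 q of at least 10, 14.0% on canonical exons and 14.0% with a peak in at least 5 lists, and 20.9% to 23.3% without each library in turn, which was chosen after seeing the data. No exonic region was line-specific at first (over all regions 1320 in T24R2 and 457 in T24); 1 was with a -log10 q of at least 10 (640 and 171), 3 were when 4 of 5 libraries of one line and up to 1 of the other sufficed (3653 and 1090), and 0 to 1 without each library. The difference in ribosomal protein genes per library, 4.4, was 2.6 with a fold enrichment of at least 4 and 2.6 with the same number of peaks, and 3.75 to 5.0 without each library. With the replicate block it stays at 4.4 by arithmetic, so that setting says nothing of this difference. The percentile of fold enrichment was 49.6 by -log10 q and 10.7 on canonical exons. The CDS share, 18.8%, was 8.36% on canonical exons. The DRACH share, 96.1% averaged over libraries, was 43.1% for GGAC and 82.2% within 25 nt, beside 89.8%, 48.0% and 70.7% for all coding genes, so the family was below them for GGAC. The cause of these shifts was not tested, beyond fewer peaks or exons entering each count. The fold enrichment of the RPL37 region changed sign, to -0.020, without T24 replicate 5, and ran up to 0.26 without each other library.

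No ribosomal protein region passed limma under any alternative run, including the replicate block and each library left out (0 to 0 regions). Over all regions, the calls higher and lower in T24R2 were 46 and 30 at first, 31 and 19 with the replicate block, 0 and 0 by an exact permutation test of the percentile, 88 and 182 on -log10 q, 56 and 17 without centring, and 82 and 56 over regions called in at least 3 libraries of each line. Same-numbered libraries of the lines correlated between -0.042 and 0.121, so the numbers do not pair them. The depth of the libraries is unknown, and peaks missed in a library cannot be told from unmethylated RNA.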
